A study of Solanum lycopersicum with 6 samples.

Results

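In fruit pericarp of tomato (Solanum lycopersicum), 169 genes had no read in any wild-type (WT) library and were read in the transgenic jmj7 lines. They were chosen by their read counts in WT: the rows of the authors' deposited table with a read count of 0 in each of the 3 wild-type libraries. That gave 171 of 8703 rows, of which Solyc12g088220.2 and Solyc03g043890.3 were left out by the rule. The rule uses the WT counts of the comparison between jmj7 and WT, so the difference between the groups is described here and not tested.

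RNA came from the equatorial pericarp, the fleshy fruit wall, of greenhouse-grown Ailsa Craig fruit. WT and jmj7 were both sampled at 38 days after anthesis, and each group has 3 libraries. The labels call the jmj7 plants transgenic lines and give neither the construct nor the number of lines, and they do not say whether the libraries came from separate plants. The columns taken as jmj7 carry the prefix JQ, which is in no sample label; the assignment is by elimination, the remaining columns being named WT, and every level given for jmj7 rests on it.

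The series title names the target, SlJMJ7, as a histone demethylase, an enzyme that takes methyl groups off histones, the proteins around which DNA is wound. Methyl groups on histones mark chromatin in which genes are read or kept silent, depending on the position that carries them. Tomato ripening is a stage at which many genes with little transcript in green fruit become abundant, among them genes of ethylene synthesis, pigment, softening and aroma. How far the fruit had ripened and what the genotype does otherwise cannot be told apart here, and in pericarp pieces fewer cells of a type and less RNA per cell cannot be told apart either.

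A gene identifier of the form Solyc02g065260.3 holds the chromosome (02), a serial number that runs along the chromosome mostly in steps of 10 (the 6 digits after the g, called the locus number here) and the version of the gene model (3). Symbols are paired with these identifiers in no file used here, so the 169 genes are named by identifier and their functions are not given.

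The FPKM values (fragments per kilobase per 1e+06 reads) also gave the depth. In every library, count divided by FPKM was a whole number of bases times 1 number of reads, for 100% of the values above 0 within 1e-06 bases. These reads, by which the authors scaled FPKM, were 20278400, 19005739 and 23188547 in WT and 27661614, 19758948 and 20521453 in jmj7. Table rows accounted for 39.5% to 39.7% of this depth in the WT libraries and for 55.1% to 55.4% in the jmj7 libraries. As a check of another layer of the sampled fruit wall, 3 epidermis and cuticle genes had a summed level of 4116 to 4423 normalized counts (reads divided by the deposited size factor of the library) in WT and 0 to 2.53 in jmj7. Of these, Solyc11g006250.2 and Solyc08g081220.1 were at 0 in every jmj7 library. The part of this difference in the levels below was not tested, and these genes had been seen to differ before they were listed.

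For most of the 169 genes the level in jmj7 was low. The median was 24 reads over the 3 jmj7 libraries together, or 0.354 FPKM, against 2384.5 reads and 20.7 FPKM for the other 2916 genes that the table marks as higher in jmj7. Between 7 and 9 reads were counted for 25 genes, 10 to 29 for 74, 30 to 99 for 35, 100 to 999 for 26 and at least 1000 for 9. At least 10 reads in each jmj7 library, the level called above the detection floor here, were found for 57 genes, and at least 5 for 94. The mean FPKM of these 57 ran from 0.166 to 499, with a median of 2.52, and that of the other 112 from 0.0267 to 2.62, with a median of 0.182. An FPKM of at least 1 in each jmj7 library was reached by 45 genes and one of at least 10 by 12.

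Zero reads in WT still allow some transcript. At 95% confidence, a count of 0 over the WT libraries allows up to 3 reads. This limit is 0.848 normalized counts or 0.048 reads per 1e+06 of the library totals. Against that limit, with the jmj7 counts taken as measured, the 169 genes were at least 3.16-fold to at least 12514-fold higher in jmj7, with a median of 10.8-fold. This value was at least 10-fold for 87 genes, at least 100-fold for 24 and at least 1000-fold for 5. With the lower end of the exact 95% Poisson interval of the pooled jmj7 count in place of the count, the range became 1.27 to 12368, the median 6.93, and the numbers of genes 69, 21 and 5. Scaling by the library totals in place of the deposited size factors lowers each value 1.47 times. That leaves 69, 18 and 4 genes with the counts as measured and 57, 16 and 4 with the lower ends, and the 12 genes of fewest reads then fall to 0.863, below the WT limit. The limit and the intervals cover counting error only.

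**Figure D1:**
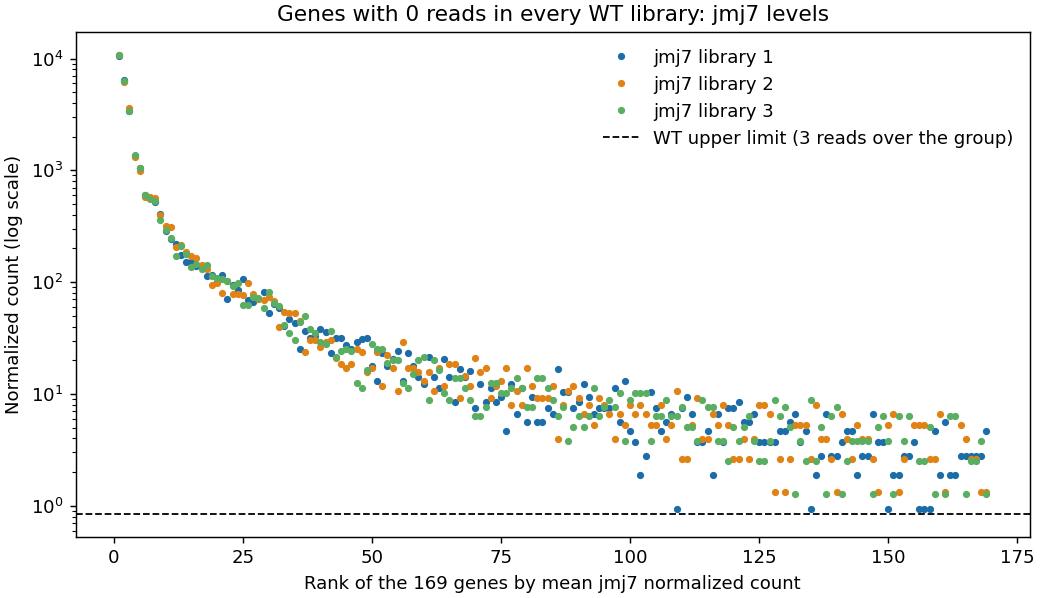
Normalized count (log scale) of the 169 genes in each of the 3 jmj7 libraries, ordered by their mean, with the WT upper limit of 0.848 normalized counts as a dashed line. The libraries lie together for the genes of highest level and spread apart towards the limit; the 7 library values at 0 reads are not drawn.

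In jmj7 the reads were concentrated in few genes. The 3 most abundant held 53265 of 76086 reads, or 70.0%, and all 169 together took 1117, 1124 and 1119.9 reads per 1e+06 of the 3 jmj7 library totals. These sums lay within a narrow range across the libraries.

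Solyc02g065260.3, on chromosome 2, had the most reads, with 11161, 8121 and 8469 in the jmj7 libraries and 0, 0 and 0 in WT. Its mean was 10627 ± 134 normalized counts (SD, n = 3) and 235 ± 2.81 FPKM. It was at least 12514-fold higher than the WT limit, or at least 8506-fold with the library totals.

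Solyc08g066245.1, on chromosome 8, had 6821, 4679 and 4976 reads in jmj7, a mean of 6286 ± 120.0 normalized counts and 379 ± 7.69 FPKM. Solyc07g062670.1, on chromosome 7, had 3643, 2715 and 2680 reads, a mean of 3461 ± 99.2 normalized counts. Its gene model is 267 bases long, and per length it stood highest of the 169, at 499 ± 13.7 FPKM. These 3 genes were the ones with at least 100 FPKM in each jmj7 library.

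The next genes had fewer reads. Solyc08g066260.3 had 1418, 1009 and 1073 reads in jmj7 (1339 ± 16.3 normalized counts, 25.7 ± 0.326 FPKM). Solyc04g077810.1 had 1110, 750 and 828 reads (1026 ± 33.1 normalized counts, 53.3 ± 1.78 FPKM). Together with the first 3 these are the genes at least 1000-fold above the WT limit with the deposited size factors.

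Solyc01g104210.2 had 646, 438 and 478 reads, Solyc09g015505.1 had 605, 437 and 435, and Solyc03g118050.3 had 558, 428 and 419, which gave means of 596 ± 16.6, 564 ± 12.8 and 539 ± 21.4 normalized counts. The means of the last 2 differed by less than the sum of their SDs. In each library Solyc09g015505.1 was the higher of these 2, and their order was not tested. Per length they were further apart: Solyc09g015505.1, with a model of 372 bases, had 58.4 ± 1.28 FPKM, against 18.5 ± 0.538 for Solyc01g104210.2 and 17.8 ± 0.683 for Solyc03g118050.3.

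Solyc03g095880.1 has a model of 153 bases, and its 435, 301 and 284 reads amounted to 97.6 ± 6.40 FPKM. Solyc10g083880.2 had 304, 240 and 231 reads (298 ± 16.1 normalized counts), and Solyc03g112170.1 had 261, 237 and 195 (268 ± 38.3). The remaining 4 of the 15 highest were Solyc02g072370.1, Solyc01g010170.2, Solyc08g005760.1 and Solyc01g010160.3. They ran from 199 ± 25.9 down to 152 ± 17.3 normalized counts and from 3.77 to 8.08 FPKM. The first 2 of these had the same mean of 199 normalized counts to 3 digits.

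At the other end, 12 genes had 7 reads in all, the lowest number found in the table for a gene at 0 in WT. Solyc01g096380.1 and Solyc01g098525.1 each had 3, 2 and 2 reads, and Solyc02g030105.1 had 5, 1 and 1. Reads were found in all 3 jmj7 libraries for 162 of the 169 genes, while 7 were at 0 in 1 jmj7 library. The rule fixes most of this: 35.2% of all rows have every jmj7 library above every WT library. The authors' deposited table gives p-values of up to 0.0462 for these genes and above 0.01 for 25 of them. That table holds p-values of at most 0.0499, and WT-silent genes that missed it were not analysed here.

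The spread between jmj7 libraries followed the depth. The median coefficient of variation was 75.2% for the 25 genes with 7 to 9 reads, 42.8% with 10 to 29, 29.1% with 30 to 99, 11.4% with 100 to 999 and 2.79% for the 9 genes with at least 1000. A chi-square of the 3 counts against the deposited size factors, divided by its 2 degrees of freedom, averaged between 1.07 and 1.81 in these classes, where counting error alone gives 1. The highest chi-square, 11.2, belonged to Solyc02g076980.4, with 113, 58 and 49 reads, the first library being the highest also after scaling.

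**Figure D2:**
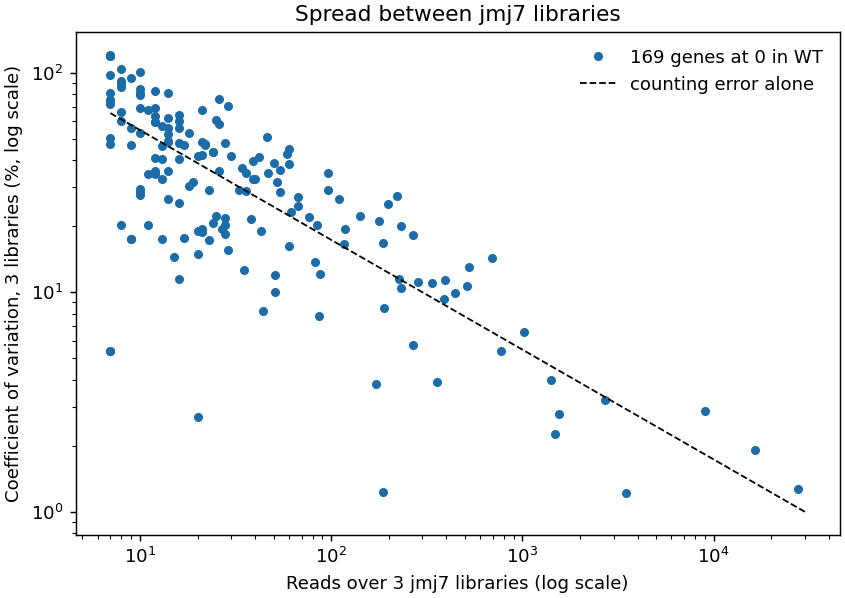
Coefficient of variation between the 3 jmj7 libraries (%, log scale) against reads over the 3 libraries (log scale), 1 point per gene, with the spread that counting error alone gives as a dashed line. The points fall along the line, from a median of 75.2% at 7 to 9 reads to 2.79% at 1000 reads or more.

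In edgeR's quasi-likelihood fit over the whole table, 65 of the 169 genes passed the filter on low counts, and all 65 were called higher at Benjamini-Hochberg adjusted p of 1.05e-43 to 2.43e-07. The background is 100% of the 7622 rows tested called in either direction and 37.2% called higher. Since the rule used this contrast, and the genes that passed did so through the group in which they are high, nothing is read from it. With size factors recomputed over the table, 3023 of 6391 calls were higher.

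Just outside the rule, 38 rows had 1 read over the WT libraries. All 38 are marked higher, beside 35.5% of all rows, but at 1 WT read the limits of the table leave only that direction. Their median in jmj7 was 23.5 reads, beside 24 for the 169 genes. Solyc08g066250.3 had 11447, 8349 and 9009 reads in jmj7 and 1, 0 and 0 in WT, and Solyc09g015650.3 had 3247, 2345 and 2423 in jmj7 and 0, 1 and 0 in WT. The first of these had more jmj7 reads than any of the 169 genes, and the second more than all but 3. The next were Solyc10g009430.3, Solyc08g078450.3 and Solyc08g081810.3, with 191 to 289, 87 to 124 and 78 to 93 reads per jmj7 library. Rows with 2 and with 3 WT reads numbered 45 and 30.

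The 169 genes lay on all 12 numbered chromosomes, from 8 genes each on chromosomes 6 and 7 to 23 on chromosome 1, and none carried the number 00 of unplaced sequence. Chromosomes 10, 9 and 12 held 10.1%, 10.1% and 9.47% of them, and 5.86%, 7.44% and 6.41% of the other genes marked higher. Chromosomes 6 and 7 held 4.73% each, and 8.57% and 8.23% of the other genes marked higher. These shares rest on 8 to 17 genes per chromosome, and no test of the distribution was made. Most reads came from chromosomes 2, 8 and 7, with 29319, 20742 and 9199, where the 3 most abundant genes lie. Of the 9 genes on chromosome 11, none was above the detection floor.

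**Figure D3:**
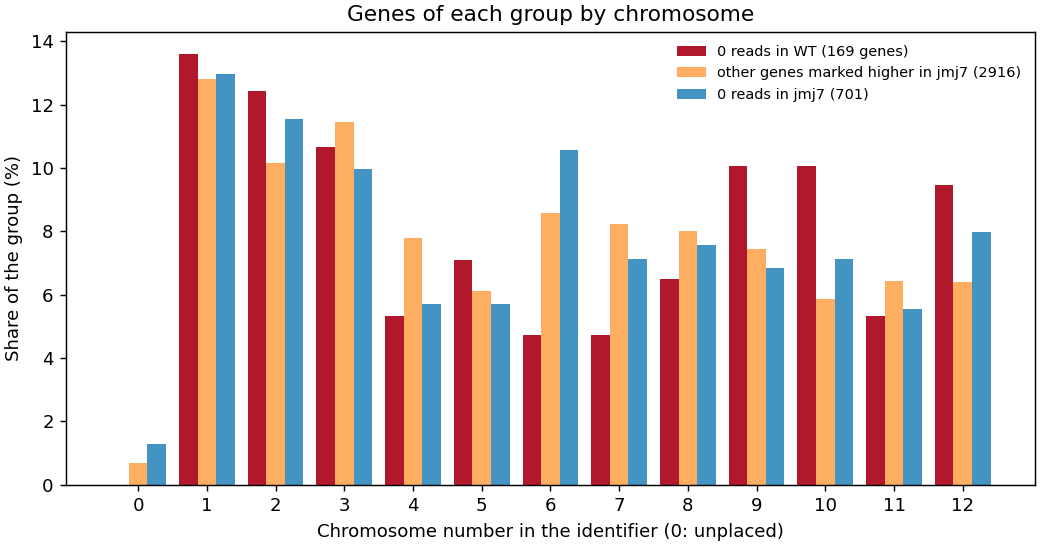
Share (%) of each group of genes on each chromosome, by the number in the identifier, for the 169 genes at 0 in WT, the 2916 other genes marked higher in jmj7 and the 701 genes at 0 in jmj7. Bars of the first group are higher than those of the second on chromosomes 1, 2, 5, 9, 10 and 12 and lower or absent elsewhere.

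Some of the genes were close to each other. With locus numbers at most 100 apart, 43 of the 169 (25.4%) formed 18 runs, of which 12 had 2 members, 5 had 3 and 1 had 4. A run was not always unbroken: 16 pairs of the genes were consecutive rows, and other rows lay between some members. Solyc03g005600.3, inside the run on chromosome 3, had 2113, 1919 and 2457 WT reads. Genes absent from the table may lie between members as well. Counting every pair, 14 pairs of them were at most 10 locus numbers apart. The 701 rows at 0 in every jmj7 library placed 286 (40.8%) in 128 runs, the longest also of 4, but a larger group lies closer together by its number alone, and of all rows 98.0% have another row within that distance. When runs were formed from the 57 genes above the detection floor alone, 9 were in runs.

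The run on chromosome 2 held the most abundant gene. Solyc02g065260.3, with 11161, 8121 and 8469 reads, lay between Solyc02g065250.2, with 34, 12 and 13, and Solyc02g065270.1, with 15, 12 and 16. The rows on either side were not silent in WT. Solyc02g065240.3 had 1081, 1038 and 1210 WT reads and 12548, 9363 and 9722 jmj7 reads, and Solyc02g065280.3 had 22, 29 and 37 WT reads and 2204, 1504 and 1720 jmj7 reads. All 5 rows were higher in jmj7, and WT ranged among them from 0 to over 1000 reads.

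On chromosome 8, Solyc08g066245.1 and Solyc08g066260.3 were in a stretch of 4 rows with nearly no WT reads. The first row, Solyc08g066240.3, had 233509, 168653 and 179107 reads in jmj7 and 5, 1 and 5 in WT. In the 3 jmj7 libraries Solyc08g066245.1 stood at 2.92%, 2.77% and 2.78% of that row's reads, and Solyc08g066260.3 at 0.607%, 0.598% and 0.599%. At those ratios the 11 WT reads of Solyc08g066240.3 would correspond to 0.312 and 0.0662 WT reads for these genes, under the limit of 3. Solyc08g066250.3, the fourth row, is the gene with 1 WT read described above.

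The longest run was on chromosome 12. Solyc12g038650.1, Solyc12g038653.1, Solyc12g038657.1 and Solyc12g038660.1 had 7 to 39 reads each over the jmj7 libraries, at 0.593 to 1.82 FPKM. On chromosome 1, Solyc01g014690.2 (5, 6 and 7 reads), Solyc01g014700.2 (33, 18 and 9) and Solyc01g014730.2 (7, 4 and 3) had no row within 100 locus numbers other than each other. None of these 7 genes had 10 reads in each jmj7 library.

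In the other runs of 3, Solyc10g080855.1 and Solyc03g005650.1 were above the detection floor. On chromosome 10 the run held Solyc10g080850.1 (18, 3 and 5 reads), Solyc10g080855.1 (14, 22 and 10) and Solyc10g080870.3 (9, 13 and 6). It lay between Solyc10g080840.1, with 15580, 11215 and 11541 jmj7 reads, and Solyc10g080880.2, with 789, 570 and 620. Solyc10g080900.2, with 104569, 75088 and 79730, was 30 locus numbers from Solyc10g080870.3. On chromosome 3, Solyc03g005580.2, Solyc03g005640.1 and Solyc03g005650.1 had 1 to 17 reads per jmj7 library. On chromosome 11, Solyc11g073140.2, Solyc11g073170.1 and Solyc11g073180.2 had 0 to 13. At such counts no order of the members within these runs was read.

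Of the runs of 2, Solyc01g010160.3 (160, 129 and 107 reads) and Solyc01g010170.2 (186, 162 and 165) stood at 8.08 ± 0.912 and 7.30 ± 0.772 FPKM, a difference smaller than the sum of their SDs. Their neighbours went different ways. Solyc01g010150.3 had 324, 231 and 219 reads in jmj7 and 77, 69 and 79 in WT, while Solyc01g010180.3 had 27, 31 and 30 in jmj7 and 1464, 1193 and 1328 in WT.

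In the remaining pairs that hold a gene of high rank, the partners were unequal. Solyc03g095880.1 was paired with Solyc03g095910.2 (2, 6 and 8 reads), and Solyc09g005780.2 (123, 61 and 85) with Solyc09g005840.1 (5, 2 and 5). Likewise Solyc03g111990.3 (71, 60 and 58) was paired with Solyc03g111930.3 (13, 6 and 9), and Solyc09g064730.3 (145, 108 and 104) with Solyc09g064750.2 (6, 3 and 4).

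Neighbouring rows of the table were often higher in jmj7 as well, about as often as around other higher genes. Within 100 locus numbers, 165 of the 169 genes had a row that is not one of them, and the nearest such row was marked higher for 84 (50.9%). The same held for 1365 of 2856 (47.8%) of the other genes marked higher, for 2901 of 8356 (34.7%) of all other rows and for 155 of 680 (22.8%) of the rows at 0 in jmj7. Of all rows, 35.5% are marked higher. The share around the genes silent in WT was close to that around the other genes marked higher, and the difference was not tested.

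Many of the genes lay near a much more abundant one. The most abundant row within 100 locus numbers had at least 10 times the jmj7 reads for 136 of 165 genes and at least 100 times for 94, and the median gene had 0.578% of that row's reads. In 6 cases the gene had more reads than every such row. Solyc07g062670.1 was the clearest, with 9038 reads over the jmj7 libraries against 527 in Solyc07g062740.3. The neighbour was picked as the highest of the rows nearby, and the genes silent in WT had few reads. Their median was 24 jmj7 reads, against 125 over all rows. The same shares were not worked out for other rows, so whether these genes lay nearer to abundant rows was not tested. The Spearman rank correlation between the jmj7 reads of a gene and of its most abundant neighbour was 0.0755.

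Several genes of high level fell next to a row with more jmj7 reads, without regard to model length. Solyc03g095880.1 lay 20 locus numbers from Solyc03g095900.3, which had 68340, 48313 and 49729 reads in jmj7 and 111, 125 and 135 in WT, and had 0.637%, 0.623% and 0.571% of its reads. Solyc03g118050.3 had 6.65%, 6.97% and 6.51% of the jmj7 reads of Solyc03g118060.3, which had 21, 22 and 29 reads in WT. Solyc04g077810.1 had 71.2%, 75.5% and 76.4% of the jmj7 reads of Solyc04g077820.3, which had 377, 305 and 384 in WT. Per length this last pair stood the other way, at 53.3 FPKM in jmj7 for Solyc04g077810.1 and 23.8 for Solyc04g077820.3. For Solyc03g095880.1 and Solyc03g118050.3 the WT reads at the jmj7 ratio were not worked out. At the ratio of Solyc04g077810.1, the WT reads of Solyc04g077820.3 would correspond to far more than the limit of 3 reads. The same holds for Solyc02g065260.3, which had 88.9%, 86.7% and 87.1% of the jmj7 reads of Solyc02g065240.3. What lies behind this was not tested. How strand, overlapping genes and similar copies were handled in counting is not given. Reads that belong to a neighbour, an antisense partner or a similar copy could not be told apart from a gene's own, and their part in these levels was not tested.

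Named ripening genes lay within 100 locus numbers of 4 of the 169 genes. The same share was not worked out for other rows, so nothing particular to these genes is read from it. Solyc08g005760.1 (163, 141 and 140 reads in jmj7) is the locus before Solyc08g005770.3, AAT1, an alcohol acyltransferase gene of fruit esters, which had 44997, 35652 and 36386 reads in jmj7 and 51, 43 and 43 in WT. It had 0.362%, 0.395% and 0.385% of the AAT1 reads, a ratio at which the 137 WT reads of AAT1 would correspond to 0.520 WT reads. Solyc09g089620.1 (101, 59 and 73 reads) is the locus after Solyc09g089610.3, ETR6, an ethylene receptor gene, and the levels of this pair ran in opposite directions, since ETR6 had 3591, 3220 and 4058 reads in WT and 499, 385 and 337 in jmj7. Solyc12g009050.2 lay 70 locus numbers from LCYE, a lycopene cyclase gene, which had 371, 327 and 442 reads in WT and 2, 5 and 7 in jmj7. Solyc12g098620.2 lay 90 from ZISO, a carotene isomerase gene, which had 1218, 1186 and 1455 in WT and 120381, 89411 and 91569 in jmj7. The pairs of name and identifier come from earlier lists, and no file used here holds them. As a check, 31 named genes, of ripening and other functions, were compared by chromosome and order with the reference gene table. All 31 matched, which does not by itself establish a pair.

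**Figure D4:**
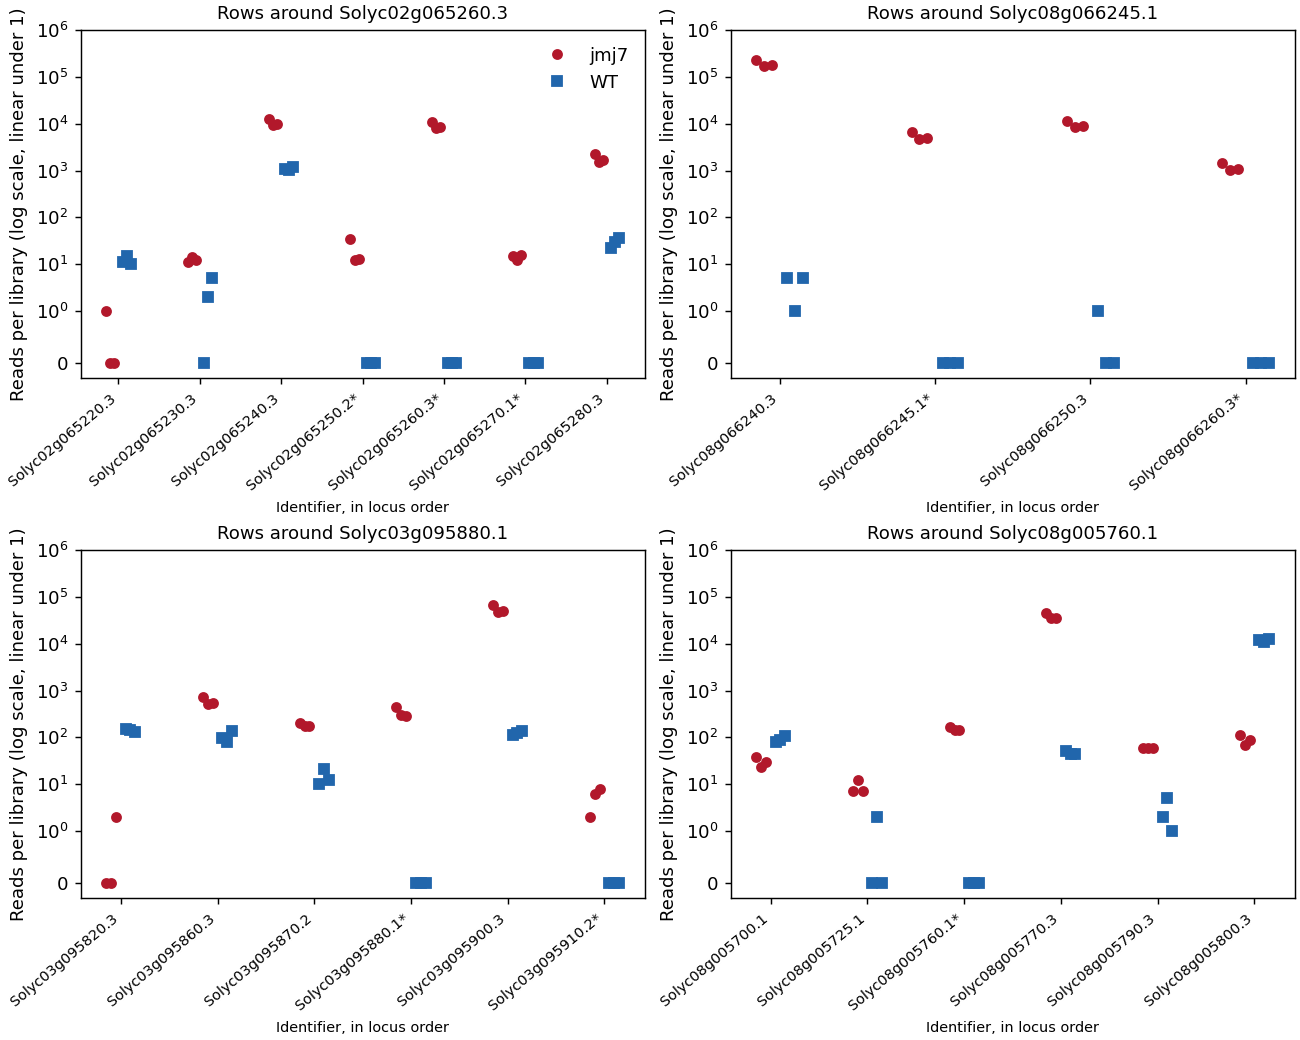
Reads per library (log scale, linear under 1) in jmj7 (circles) and WT (squares) for the rows within 60 locus numbers of Solyc02g065260.3, Solyc08g066245.1, Solyc03g095880.1 and Solyc08g005760.1, with an asterisk at the genes at 0 in WT. Silent genes stand beside rows of up to 233509 jmj7 reads, and WT reads in the rows around them run from 0 to 12773 per library.

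**Figure D5:**
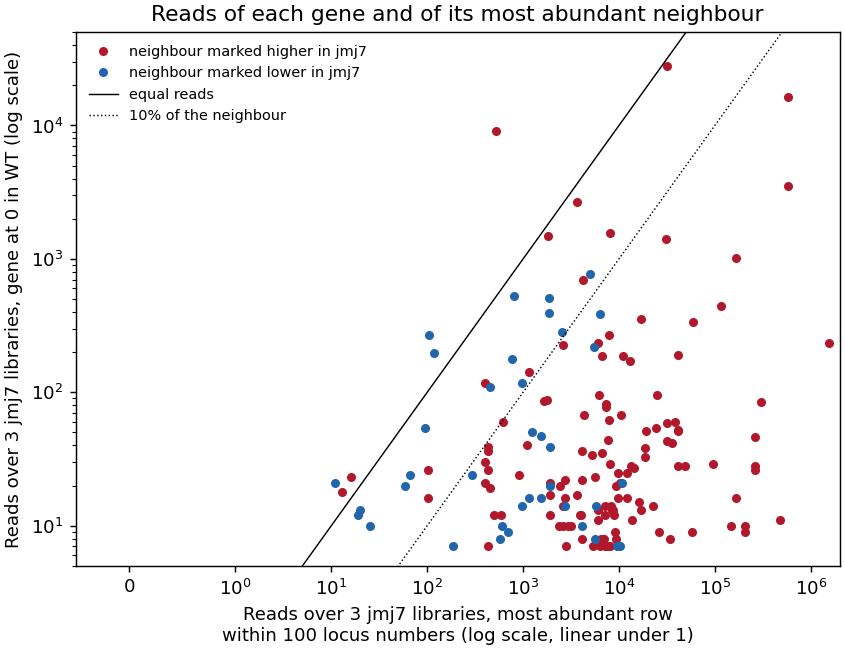
Reads over the 3 jmj7 libraries of each gene at 0 in WT (log scale) against those of the most abundant other row within 100 locus numbers (log scale, linear under 1), for 165 genes, coloured by the direction the authors' table gives that row. Points below the dotted line, 136 of them, have at most 10% of their neighbour's reads, and 6 lie above the line of equal reads.

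The gene models differed from those of the other genes marked higher in length and version. The median length was 1303 bases, against 1609 for the other genes marked higher and 1366 for the genes at 0 in jmj7, and 29 (17.2%) were under 500 bases, against 9.77% and 12.6%. Version 1 models made up 63 (37.3%), against 18.3% and 27.4%. A locus number that does not end in 0, as given to a model placed between older ones, was carried by 21 (12.4%), against 7.65% and 7.56%. Among the 57 genes above the detection floor, 4 (7.02%) had such a number, 20 (35.1%) were of version 1 and the median length was 1086 bases. These groups also differ in level. The 38 rows with 1 WT read, at a median of 23.5 jmj7 reads, had a median length of 1064 bases. Of them 31.6% were under 500 bases, 26.3% were of version 1 and 5.26% had a locus number not ending in 0. None of these shares was tested.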

How the data were processed

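Per the file headers, the deposited table gives whole-number read counts for each library. Beside them stand the authors' FPKM and a deposited signal, the normalized count, found here to be each read count over a single size factor of its library. The authors' deposited log2 fold changes (JQ over WT) and p-values served to describe the table; its rows all lie beyond 1 on the log2 scale, at p-values no higher than 0.0499. HISAT2 is named, per the submitters' processing notes. Its version, the genome build, the counter and strandedness are not stated.

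The genes, lists and thresholds were chosen with earlier results of these data known. Levels are means with the SD over 3 libraries. Library totals and model lengths were recovered from counts and FPKM, and whether the totals are all mapped reads is not given. Folds against WT use 3 reads pooled over WT. Read counts were fitted with edgeR 4.0.16 in R 4.3.3 (glmQLFit, glmQLFTest, filterByExpr with a minimum count of 10, deposited size factors, Benjamini-Hochberg adjusted p), with DESeq2 1.42.0 as an alternative. The simulated data on which the fit was tried held moderate fold changes at higher counts, so they do not cover genes silent in a whole group. The chi-square per gene between replicates of a group was 1.63 to 3.63, so no pair looked like the same library deposited again. This spread does not show that the libraries came from separate plants, and p-values measure the spread between these libraries, which may be technical.

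Named genes were the 15 of highest normalized count, the 5 of highest FPKM, runs of 3 or more, runs of 2 with a gene among the 40 highest, the 3 with fewest reads and 5 just outside the rule. Others, such as those beside named ripening genes, were singled out after their values were seen. No sequence is shown, as the reference table used here holds none.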

Additional observations from a re-analysis of the deposited data

How the results depend on the processing

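The 57 genes above the detection floor became 94 with at least 5 reads in each jmj7 library, 41 with at least 20 and 45 with an FPKM of at least 1, and 58 to 64 without 1 jmj7 library in turn. The 169 genes became 195, 189 and 200 when WT library 1, 2 or 3 was left out, and 207 with at most 1 WT read. The 43 genes in runs became 34 with a distance of 50 locus numbers, 56 with 200 and 9 among the genes above the floor. The 65 genes called higher became 67 with TMM factors, 91 with size factors recomputed over the table, 53 with library totals (chosen after seeing the data), 69 to 79 without 1 library in turn, and 169 both without the low-count filter and with DESeq2, which tested all of them. Over the table, 7622 calls became 6391 to 8703 under these settings, and 7722 to 7877 without 1 library in turn.

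The replicate numbers did not pair the libraries: same-numbered WT and jmj7 libraries had deviations correlated at -0.033, 0.0175 and -0.0249 over 4513 genes. With the replicate number as a block, 65 genes of the 169 and 7622 in all were called. In all, 33 of the 37 alternative counts lay within a factor of 1.5 of the main ones. That tally includes the calls over the table and among the 169 genes, which the selection of the rows largely fixed. The 4 that moved were the 94 genes at 5 reads, the 9 in runs above the floor, and the 169 called without the filter and with DESeq2. Depth limits the 99 genes with under 30 reads in all, whose values vary by a median of 42.8% or more.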

Other observations

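Model lengths recovered from FPKM were divisible by 3, as for a model of coding sequence alone, for 100 of the 169 genes (59.2%), against 45.2% of the other genes marked higher, 54.9% of the genes at 0 in jmj7 and 48.6% of all rows. The mirror group, at 0 in every jmj7 library, had 701 rows, or 12.5% of those marked lower, while the 171 rows at 0 in WT were 5.54% of those marked higher. Its median was 34 reads over the WT libraries and its highest value 16287, beside 24 and 27751 jmj7 reads for the 169 genes. These are reads before scaling. The deposited size factors were 1.07 to 1.31 in WT and 0.759 to 1.07 in jmj7, so the values are not directly comparable between groups.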
